A study of Homo sapiens with 4 samples.

Results

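The genes described here encode parts of the ubiquitin-proteasome system, which tags proteins with ubiquitin and degrades them. They were chosen by symbol: proteasome genes (PSMA to PSMG), ubiquitin-activating, -conjugating and -ligating enzymes named UBE1 to UBE4, deubiquitinases named USP, F-box genes (FBXO, FBXW, FBXL) and cullins (CUL). On the array, 121 features carried 62 such symbols. USP12 had no value and UBE4A a value on 1 array (0.29 on the 24 h array against control siRNA), and both were set aside. The other 60 genes, of 4454 named genes with a value on at least 2 arrays, make up the set. Of these, 55 were measured on all 4 arrays, 2 (USP6 and PSMA3-AS1) on 3, and 3 (PSMD6, CUL5 and USP22) on 2. The symbol also caught 4 genes that are not what it spells: PSMA3-AS1, an antisense RNA, FBXL21P, a pseudogene, PSME3IP1, which encodes a partner of PSME3, and USP6NL, which encodes a GTPase-activating protein. No symbol of an E1 enzyme, a 19S ATPase or a proteasome assembly chaperone was among the 62.

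The series asks which genes respond to knockdown of MYC in OCI-Ly10, a cell line long grown from a human B-cell lymphoma of the diffuse large type. On each of 4 arrays, Cy5-labelled RNA of cells electroporated with 4 uM of a siRNA pool against MYC was hybridised with Cy3-labelled control RNA. The controls were cells electroporated with 4 uM of a nonspecific siRNA to Renilla luciferase (1 array at 8 h, 1 at 24 h) or in Solution T without siRNA (1 array at 6 h, 1 at 24 h), with the same number of cells for each time. All RNA thus came from 1 line after electroporation, and 0 arrays had the dyes swapped. There was 1 array for each control and time, and nothing says that they came from separate cultures, so the spread behind each p-value is that of 4 arrays and may be technical. Values are log2 ratios of MYC siRNA over control, with base and direction taken from the values and the dyes, so below 0 means less transcript with MYC siRNA. A ratio from bulk RNA cannot tell fewer cells of a kind from less RNA per cell.

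Median log2 ratios of the arrays over all features lay between -0.034 and 0.014 and their SDs between 0.288 and 0.447, with the widest spread on the 24 h array against no siRNA. MYC, the targeted gene, read -0.94 (8 h) and -0.35 (24 h) with control siRNA as the reference, and -1.26 (6 h) and -1.03 (24 h) with no siRNA. Its sign helped to set the direction and is no separate evidence of knockdown. Ratios hold no level, so they cannot show whether a marker was expressed. Of 10 B-cell markers 9 had values (median 0.10), and 5 of 6 T cell markers (0.17), 1 of 5 monocyte markers (0.03) and 3 of 4 erythroid markers (-0.01) did, with 0 of these 18 past the test.

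Ubiquitin is passed from an E1 to an E2 enzyme and then, with the help of an E3 ligase, to a target protein. In the largest family of ligases a cullin is the scaffold, and F-box proteins are the exchangeable parts that bind the target of CUL1 complexes. A chain of ubiquitin marks the target for the 26S proteasome, a 20S barrel of alpha and beta rings with a 19S cap at its end, while USP proteases take ubiquitin off again. NF-kappaB signalling in B cells runs through this system, and MYC protein itself is a short-lived substrate of it.

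Of the 60 genes, 7 fell with MYC siRNA, 0 rose and 53 did not pass (limma, adjusted p under 0.05; 17 were lower and 4 higher at an unadjusted p under 0.05). Those that fell were the cullin gene CUL4B, the deubiquitinase genes USP6 and USP48, the F-box gene FBXO45, the pseudogene FBXL21P, the 20S subunit gene PSMB4 and the activator gene PSME3. Their means ran from -0.60 (CUL4B) to -0.34 (PSME3), which is 66.1% to 78.9% of control. Over all 8509 entries tested, genes and single features without a symbol together, 6.23% fell and 3.0% rose, or 9.23% in either direction. The 7 genes make up 11.7% of the set, near the 9.23% for either direction and above the 6.23% that fell. The difference was not tested. At an unadjusted p under 0.05 the lower genes were 28.3% of the set, against 16.5% of all entries, and the higher 6.67%, against 15.2%.

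The whole set lay slightly low. The median of the 60 means was -0.08, against 0.01 over all entries, and 36 were below 0. With control siRNA the medians by array were -0.06 (8 h) and -0.07 (24 h), and with no siRNA -0.05 (6 h) and -0.14 (24 h). Of the 55 genes with 4 values, 21 were below 0 on each array (38.2%, against 23.3% of entries) and 7 above 0 on each (12.7%, against 19.4%). The 7 above were UBE3B, UBE2Z, UBE2L6, PSMB9, PSMF1, UBE2A and UBE2H, of which 0 passed. Values here are averages over a gene's features. For some genes, such as UBE2H above 0 and USP48 below 0, these were not the same on each array.

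The 7 calls needed all arrays, since 1 (CUL4B) was left without the 8 h array and 0 without any other 1 array. Each of the 7 means stayed below 0 in every such fit. Over all entries the calls then fell from 785 to 162 without the 8 h array, to 3 and 14 without the 24 h arrays against control siRNA and against no siRNA, and to 0 without the 6 h array (limma; 2378 entries at an unadjusted p under 0.05). With time and control kind as terms, which drops USP6, 18 of 55 genes passed, 14 lower and 4 higher, against 1124 lower and 856 higher of 6798 entries.

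MYC with its partner MAX binds the E-box CACGTG, so this word was looked for around the start sites of the members. RefSeq promoter windows of GRCh38.p14, from 250 bases before to 50 after a start, were given for 47 of the 60 genes, and 8 of these held the word in at least 1 window (17.0%, against 13.1% of 3636 tested genes and 8.78% of all 27305 genes in the table). The word reads the same on both strands, and its windows made up 7.26% of all 35116. The 8 genes were CUL4B, USP6, PSME3, UBE4B, CUL5, PSME3IP1, USP6NL and FBXL5, with means from -0.60 to 0.27. The windows of the 3 among them that fell are shown, 5′ to 3′ on the gene's strand, with the word in capitals.
CUL4B, chrX:120559849-120560148, minus strand: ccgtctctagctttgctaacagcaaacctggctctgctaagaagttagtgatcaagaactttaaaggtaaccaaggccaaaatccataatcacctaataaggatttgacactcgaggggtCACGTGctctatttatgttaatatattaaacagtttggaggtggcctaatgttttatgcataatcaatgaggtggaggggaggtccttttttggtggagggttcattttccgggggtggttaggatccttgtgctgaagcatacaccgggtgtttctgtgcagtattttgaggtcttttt
USP6, chr17:5128559-5128858, plus strand: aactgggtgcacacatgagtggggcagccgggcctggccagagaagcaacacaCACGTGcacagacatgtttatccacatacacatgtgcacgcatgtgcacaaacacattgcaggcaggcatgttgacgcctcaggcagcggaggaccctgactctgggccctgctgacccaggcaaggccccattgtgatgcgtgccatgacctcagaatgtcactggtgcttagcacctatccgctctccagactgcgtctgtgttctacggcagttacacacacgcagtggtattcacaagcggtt
PSME3, chr17:42833147-42833446, plus strand: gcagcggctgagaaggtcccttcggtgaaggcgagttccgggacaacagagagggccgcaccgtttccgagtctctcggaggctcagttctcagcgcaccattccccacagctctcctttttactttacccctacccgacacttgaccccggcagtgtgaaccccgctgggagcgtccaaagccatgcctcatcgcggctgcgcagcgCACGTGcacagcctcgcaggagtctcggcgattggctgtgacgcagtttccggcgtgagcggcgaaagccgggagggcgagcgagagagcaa
The word starts 42 bases before the start site of PSME3, whose only window this is. For CUL4B it lies 130 bases before 1 of 4 start sites, and for USP6 197 bases before 1 of 2. A match of letters is no evidence of binding, and of the 2 other genes that fell and had a window, FBXO45 and PSMB4, neither holds the word there.

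In the 20S barrel, PSMB4 fell and the other 4 measured subunits did not pass. PSMB4, a beta subunit without a catalytic site, had log2 ratios of -0.37 (8 h) and -0.45 (24 h) with control siRNA, and of -0.15 (6 h) and -0.65 (24 h) with no siRNA. All 4 were below 0 and the 6 h value was the nearest to it, for a mean of -0.40 ± 0.21 (SD, n = 4; limma SE 0.10, adjusted p = 0.044). PSMB7 and PSMB6, the beta subunits that carry trypsin-like and caspase-like activity, averaged -0.19 ± 0.05 and -0.08 ± 0.13. PSMB7 was even, between -0.24 and -0.14 on all arrays. PSMA7, of the alpha ring, was at -0.15, -0.07, -0.44 and -0.37 (8 h, 24 h, 6 h, 24 h), so lower on the arrays against no siRNA. PSMB1, a beta subunit without a catalytic site, lay the other way, at 0.53, 0.54, -0.04 and 0.37, with a mean of 0.35 ± 0.27 that did not pass (adjusted p = 0.0776). Without the 6 h array its mean was 0.48.

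**Figure D1:**
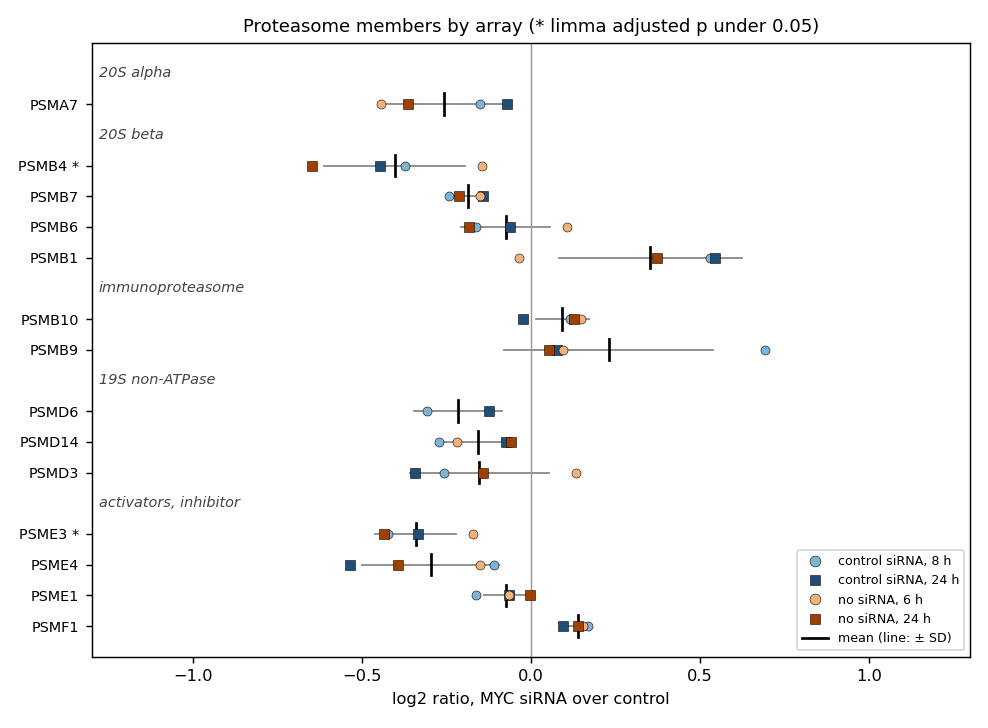
Log2 ratios (horizontal axis, MYC siRNA over control) of 14 proteasome genes by role, 1 symbol per array, with the mean as a black tick and ± SD as a grey line. PSMB4 and PSME3 passed the test, and PSMB1 is the 20S gene with the highest mean, 0.35.

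In the 19S cap 0 of 3 measured genes passed, and each mean lay between -0.22 and -0.15. PSMD14, the protease that cuts the ubiquitin chain off the substrate as it enters, was below 0 on all 4 arrays, from -0.27 at 8 h to -0.06 at 24 h against no siRNA. PSMD3, of the lid, was at -0.26, -0.34, 0.13 and -0.14 and so was above 0 on the 6 h array. PSMD6, also of the lid, had values of -0.31 and -0.12 on the arrays against control siRNA, and its fit used these 2.

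Among activators and the inhibitor, PSME3 fell. It encodes PA28-gamma, a nuclear ring that opens the 20S barrel without ubiquitin, and read -0.42 and -0.34 against control siRNA and -0.17 and -0.43 against no siRNA. The mean was -0.34 ± 0.12 (SD, n = 4; limma adjusted p = 0.0476). Its features were unequal, at -0.57 and -0.11, and the first passed by itself (adjusted p = 0.0227 over single features) while the second did not. PSME4, the large activator PA200, was at -0.11, -0.54, -0.15 and -0.39, lower at 24 h for each control, and averaged -0.30 ± 0.20 (limma adjusted p = 0.0883). PSME1, a subunit of the interferon-inducible PA28 ring, lay between -0.16 and -0.004. PSMF1, the inhibitor PI31, lay between 0.09 and 0.17 on all arrays, with a mean of 0.14 ± 0.03 that did not pass.

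The 2 immunoproteasome genes measured did not pass. PSMB9 and PSMB10 replace PSMB6 and PSMB7 in barrels of immune cells and favour peptides for MHC class I. PSMB9 had 0.69 on the 8 h array and 0.08, 0.09 and 0.05 on the others, so its mean of 0.23 ± 0.31 rests on that array and was 0.08 without it. PSMB10 lay between -0.02 and 0.15. Of 19 measured genes in a list of interferon response and antigen presentation, 7 rose, 0 fell and 12 did not pass, with a median of 0.30, where 3.0% of all entries rose and the median was 0.01. The 6 with the highest means were IFI6 (0.51), IFIT1 (0.45), ISG15 (0.43), MX1 (0.42), OAS1 (0.42) and TAPBP (0.37). The 1 mean below 0 was that of OAS2 (-0.30), which, like MX2 (0.01), did not pass. TAPBP is part of the peptide-loading complex of MHC class I, of which the transporter genes TAP1 (3 arrays) and TAP2 did not pass, at 0.07 and 0.12. The part of these genes in the values of PSMB9 was not tested.

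Among E2 enzyme genes 0 of 9 passed the test (limma; 1 lower and 2 higher at an unadjusted p under 0.05), with a median of 0.04. Unadjusted, 16.5% of all entries were lower and 15.2% higher. UBE2C and UBE2S, which build chains for the anaphase-promoting complex in mitosis, averaged -0.06 ± 0.13 and 0.04 ± 0.15. Averaged over its 3 features, UBE2S was above 0 on both early arrays (0.17 and 0.18) and below on both at 24 h (-0.07 and -0.11). No feature of UBE2S changed sign in that way by itself, but those with values on all 4 arrays were lower at 24 h for each control. 1 of them went from 0.37 to -0.004 with control siRNA and from 0.485 to 0.085 with no siRNA. The other went from -0.16 to -0.44 and from -0.13 to -0.62. The means of the 3 features were 0.23, 0.24 and -0.34, the last from values below 0 on all 4 arrays. UBE2A and UBE2B, close relatives that act in DNA damage tolerance, lay on opposite sides on every array when their features were averaged. UBE2A was between 0.05 and 0.14 and UBE2B between -0.35 and -0.10 (means 0.10 ± 0.04 and -0.20 ± 0.11). Single features did not all follow, with means from 0.0035 to 0.24 for UBE2A and from -0.46 to 0.02 for UBE2B. UBE2H lay between 0.05 and 0.12 on all arrays when its features were averaged, but these were not the same on each array. Features with means of 0.615 and -0.119 had values on the arrays against control siRNA alone. With only its features complete on all arrays, the mean was 0.046 instead of 0.086. UBE2V1, the partner of UBE2N that has no active site, was between -0.18 and -0.0005, and UBE2J1, an E2 of the endoplasmic reticulum membrane, at 0.19 on the 8 h array and between -0.24 and -0.14 on the others.

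The highest E2 means belonged to UBE2Z and UBE2L6. UBE2Z, which takes ubiquitin or FAT10 from UBA6, was at 0.12 and 0.09 against control siRNA and at 0.48 and 0.38 against no siRNA. It averaged 0.27 ± 0.19 (limma adjusted p = 0.11). UBE2L6, the E2 for the interferon-induced modifier ISG15, read 0.35 and 0.40 early, and 0.04 and 0.18 after 24 h (mean 0.24 ± 0.16, adjusted p = 0.125). ISG15 itself rose, by a mean of 0.43 ± 0.24 (adjusted p = 0.044), and UBA7, its E1, averaged 0.18 ± 0.05 and did not pass.

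The HECT ligase genes UBE3B and UBE3C had the highest and the lowest means among UBE symbols, and neither passed. UBE3B was at 0.20 and 0.25 against control siRNA and 0.41 and 0.38 against no siRNA, with a mean of 0.31 ± 0.10 (limma adjusted p = 0.056). It passed when entries with gaps were left out of the fit, and over the alternatives with all arrays its limma adjusted p ran from 0.017 to 0.202. The last came from the median of features, with a mean of 0.18. Its 3 features averaged 0.14, 0.22 and 0.57, and only the highest passed by itself (limma adjusted p = 0.024 over single features). At 8 h they read -0.02, 0.007 and 0.62. UBE3C, which works on chains at the proteasome, was at 0.01, -0.41, -0.26 and -0.70, lower at 24 h for each control, and averaged -0.34 ± 0.30 (adjusted p = 0.0953). UBE4B, a U-box ligase that lengthens chains, was at -0.43, -0.42, -0.06 and -0.27, so further below 0 against control siRNA (mean -0.29 ± 0.17, adjusted p = 0.0815).

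CUL4B had the lowest mean of the set. It is the X-linked cullin that works with the adaptor DDB1 on chromatin and in DNA repair, and its values were -0.35 and -0.54 against control siRNA and -0.56 and -0.94 against no siRNA. Each value was below 0 and the lowest was that at 24 h against no siRNA. The mean was -0.60 ± 0.24 (SD, n = 4; limma SE 0.11, adjusted p = 0.0281) from 1 feature, and ran from -0.68 to -0.485 as single arrays were left out. The other 3 cullin genes did not pass. CUL3, the scaffold for BTB adaptors, was at -0.26, -0.11, -0.31 and -0.53 (mean -0.30 ± 0.17, adjusted p = 0.0771), CUL2 averaged -0.15 ± 0.13 and CUL5 read -0.33 and -0.03 on the arrays against no siRNA.

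Of 18 measured partners of cullins in a list of them, COPS5 and SKP1 fell, 0 rose and 16 did not pass, with a median of -0.14. Over all entries 6.23% fell and 3.0% rose, with a median of 0.01. COPS5, the subunit of the COP9 signalosome that removes NEDD8 from cullins, averaged -0.47 ± 0.27 (limma adjusted p = 0.041). SKP1, the adaptor between CUL1 and F-box proteins, averaged -0.34 ± 0.12 (adjusted p = 0.0476). SKP2, an F-box protein that targets the CDK inhibitor p27, was at -0.30 ± 0.31, DDB1 at -0.09 ± 0.18, RBX1, the RING subunit, at -0.01 ± 0.14 and VHL, the substrate receptor of CUL2, at 0.45 ± 0.39, and these did not pass.

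F-box genes were spread on both sides of 0, with FBXO45 lower and the other 11 not passing (median -0.02; 6 means below 0 and 6 above). The share of all entries that fell was 6.23%. FBXO45, an atypical F-box protein that pairs with the ligase MYCBP2, was at -0.12, -0.75, -0.30 and -0.61. Both 24 h values were below both early ones, and the mean was -0.44 ± 0.29 (SD, n = 4; limma adjusted p = 0.048). FBXO11, which targets the lymphoma factor BCL6, showed the same order, its 24 h values (-0.73 and -0.82) being below its early ones (-0.31 and 0.02). Its mean of -0.46 ± 0.39 did not pass (adjusted p = 0.0655), but it did with entries complete on all arrays, and over the alternatives with all arrays its limma adjusted p ran from 0.00177 to 0.0659.

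The remaining F-box genes did not pass. FBXO10, which can target BCL2, was below 0 on all 4 arrays (-0.13, -0.12, -0.51 and -0.21), as was FBXO43, an inhibitor of the anaphase-promoting complex, between -0.37 and -0.04. FBXL5, the iron-sensing receptor for IRP2, had the highest F-box mean, 0.27 ± 0.36, and its 24 h values were furthest apart, at -0.18 with control siRNA and 0.69 with no siRNA. FBXW11 and FBXW2 averaged 0.03 and 0.01, FBXO38 0.04, FBXO41 0.17, FBXO31 -0.05, FBXO25 -0.09 and FBXO42 0.0015. The mean of FBXW2 came from 2 features on opposite sides of 0 on every array, at -0.34 and 0.36, and neither passed by itself. FBXW11 is the beta-TrCP relative that takes IkB and beta-catenin for degradation. FBXL21P fell, at -0.41, -0.13, -0.68 and -0.74 (mean -0.49 ± 0.28, limma adjusted p = 0.0377), but it is a pseudogene, measured by 1 feature.

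**Figure D2:**
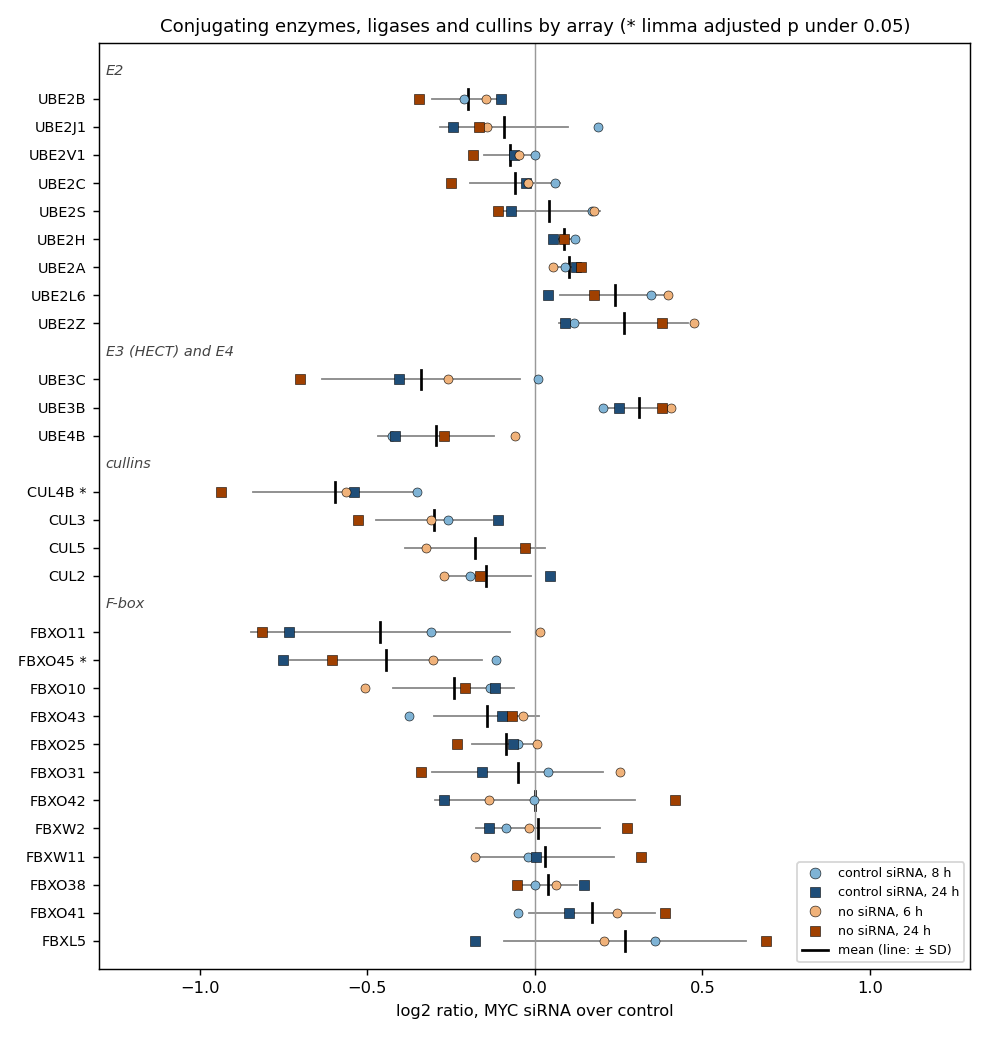
Log2 ratios (horizontal axis, MYC siRNA over control) of E2, E3, E4, cullin and F-box genes, 1 symbol per array, with the mean as a black tick and ± SD as a grey line. All 4 cullin means lie below 0 while E2 means lie on both sides, and the 24 h squares of FBXO11 and FBXO45 lie left of their early circles.

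Among deubiquitinase genes USP6 and USP48 fell, 0 rose and 12 of 14 did not pass, with a median of -0.07. Of all entries 6.23% fell and 3.0% rose, and their median was 0.01. USP48, which acts on histone H2A and on RELA of NF-kappaB, read -0.53 and -0.63 with control siRNA, and -0.05 (6 h) and -0.58 (24 h) with no siRNA. Averaged over features, the 6 h value stood near 0 and the other 3 close together. The mean was -0.45 ± 0.27 (SD, n = 4; limma adjusted p = 0.0435). USP48 had 2 features, 1 of them with values on the arrays against no siRNA alone. The other read 0.075 at 6 h, above 0. Neither passed by itself (limma adjusted p = 0.232 and 0.0535 over single features). USP6, a hominoid gene that arose from USP32 and TBC1D3, was at -0.38, -0.40 and -0.78, with no value at 6 h. Its mean was -0.52 ± 0.23 (SD, n = 3; adjusted p = 0.0403), and whether its feature reads those relatives was not tested.

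USP7 and USP34 were below 0 on all 4 arrays without passing. USP7, which takes ubiquitin off MDM2 and p53, was at -0.21, -0.23, -0.15 and -0.72, so that its mean of -0.33 ± 0.26 (limma adjusted p = 0.092) was drawn down by the 24 h array against no siRNA and was -0.19 without it. Its 3 features were lower there alike, at -0.74, -0.88 and -0.54. USP34, which acts on axin in WNT signalling, averaged -0.28 ± 0.17 (adjusted p = 0.0908) over 4 features. USP1, the partner of WDR48 in DNA repair, averaged -0.13 ± 0.10, also below 0 on every array.

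The other deubiquitinase genes had values on both sides of 0 or 2 values only. USP15 averaged -0.08, USP9X, which stabilises MCL1, -0.07, USP47 0.03, USP24 0.12 and USP8, of endosomal sorting, 0.16. USP33 was at -0.32 and -0.64 early and at 0.11 and 0.12 at 24 h. USP25 went the other way, its early values being 0.47 and 0.63 and its 24 h values -0.74 and -0.10. USP22, of the SAGA complex, read 0.10 and 0.53 on the arrays against control siRNA, the 2 its fit used, and did not pass (limma adjusted p = 0.203).

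**Figure D3:**
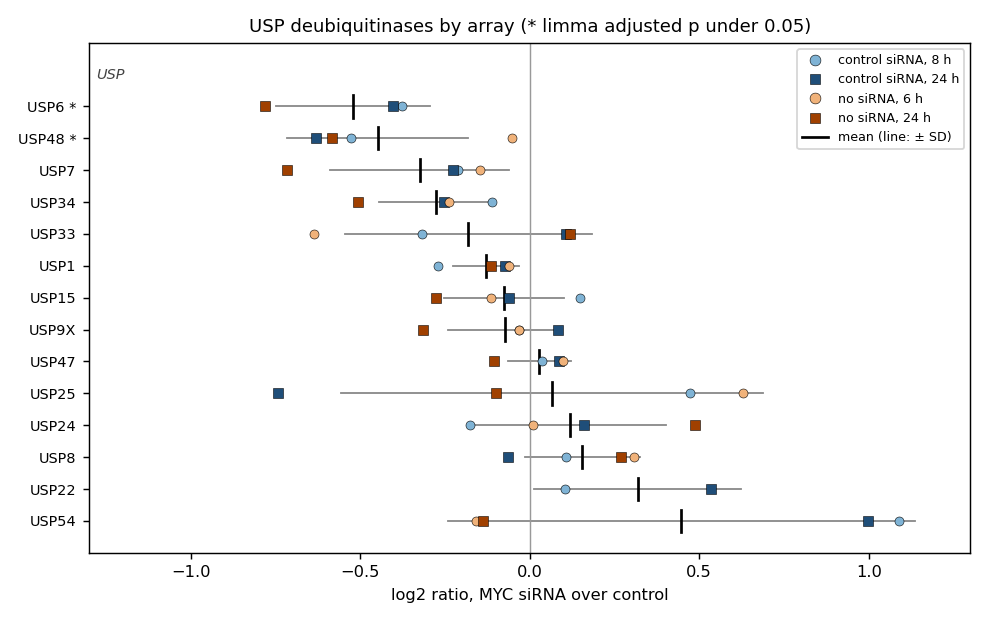
Log2 ratios (horizontal axis, MYC siRNA over control) of 14 USP genes, 1 symbol per array, with the mean as a black tick and ± SD as a grey line. USP54 is split by the control, with 1.09 and 1.00 against control siRNA and -0.16 and -0.14 against no siRNA, and USP25 and USP33 are split by time.

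Of the pathway's genes outside the symbol families, some in other lists passed, where 6.23% of all entries fell and 3.0% rose. UCHL3, a ubiquitin hydrolase, averaged -0.44 ± 0.17 (limma adjusted p = 0.0333) and was the 1 of 6 other deubiquitinases to fall. In the anaphase-promoting complex CDC16 fell, at -0.37 ± 0.17 (adjusted p = 0.0475), and 4 of 5 did not pass. SENP1, a SUMO protease, averaged -0.45 ± 0.29 (adjusted p = 0.0473), and the other 10 E1 and conjugation genes did not pass, UBA1, the main E1, being at 0.08 ± 0.18. Of 16 HECT and RING ligase genes 0 passed (limma), with 2 lower (SMURF1 and ARIH2) and 1 higher (TRAF5) at an unadjusted p under 0.05, where 16.5% of all entries were lower and 15.2% higher. Of 6 genes in a list of shuttles, segregase and assembly factors, which also holds the transcription factor gene NFE2L2, 0 passed (limma). Unadjusted, RAD23B, a shuttle gene, and NFE2L2 were lower and SEM1, a small 19S subunit gene, higher. SEM1 had values on the arrays against no siRNA alone (0.39 and 0.34), the 2 its fit used.

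Time was compared on the 55 genes with 4 values, as the 24 h arrays minus the early ones (6 h and 8 h) with control kind as a second term. Of these 0 passed (limma; 5 lower and 2 higher at an unadjusted p under 0.05), and over all 6798 entries 0.118% did (0.0883% lower and 0.0294% higher), with 6.08% lower and 4.03% higher unadjusted. The nearest was USP25, whose mean went from 0.55 early to -0.42 at 24 h, a difference of -0.97 ± 0.19 (limma SE; adjusted p = 0.053). Over the alternatives tried with all 4 arrays that adjusted p ran from 0.00051 to 0.747, and it was under 0.05 with centred arrays, with features complete on all arrays and with the median of features. It ran from 0.148 to 0.987 in fits that left out 1 array and the term for control together, and was 0.747 without that term alone. USP25 encodes a deubiquitinase of innate immune signalling and rested on 1 feature.

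The others at an unadjusted p under 0.05 were FBXO11 (-0.15 early, -0.77 at 24 h), FBXO45 (-0.21 and -0.68), UBE3C (-0.13 and -0.55) and FBXO31 (0.15 and -0.25) on the lower side. On the higher side were USP33 (-0.48 and 0.11) and USP24 (-0.08 and 0.32). The limma adjusted p of these 6 ran from 0.228 (FBXO11) to 0.494 (FBXO31). The median difference over the 55 genes was -0.06, against 0.0005 over all entries.

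The kind of control separated USP54, a little studied member of the USP family. It read 1.09 and 1.00 against control siRNA and -0.16 and -0.14 against no siRNA, and the difference of -1.19 ± 0.18 (limma SE) passed with an adjusted p of 0.0235. It was the 1 gene of 55 to pass, against 0.0883% of all entries. The call was lost without a term for time (adjusted p = 0.296) and with arrays scaled to 1 SD (adjusted p = 0.27), and also without the 6 h array (0.204) or the 24 h array against no siRNA (0.118), fits that hold no term for time. The difference stayed between -1.24 and -1.15 in each of these fits and those in which the call held. FBXL21P (-0.44, adjusted p = 0.414) was the other at an unadjusted p under 0.05, where 6.38% of all entries were lower and 3.69% higher. Each kind of control had its own arrays, so the control and anything else that differed between those arrays cannot be told apart.

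**Figure D4:**
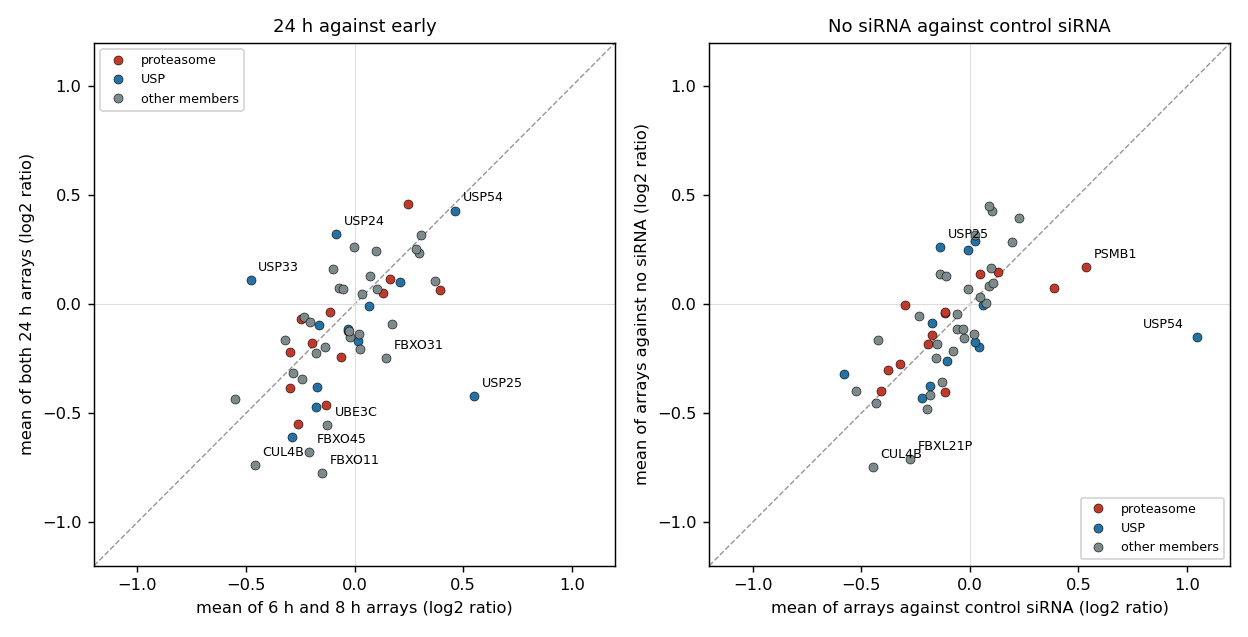
Mean log2 ratios of 55 genes with 4 values, for 24 h against early arrays (left) and for arrays against no siRNA and control siRNA (right), with equal values on the dashed line. USP25 and USP33 lie far from the line on the left and USP54 on the right, at 1.04 against control siRNA and -0.15 against no siRNA.

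Features of 1 gene did not always read alike. Of the 60 genes 31 rested on 1 feature with a value, and 29 had several with at least 2 arrays, of which 17 had features of 1 sign and 12 of both. The median gap between the highest and the lowest feature mean was 0.31, beside a median limma SE of 0.097 for a gene's mean. USP9X was the 1 gene with features called in both directions, at -0.37 (adjusted p = 0.0477 over single features) and 0.43 (adjusted p = 0.0471), with the other 3 between -0.22 and -0.04. UBE2H ran from -0.12 to 0.615, the highest feature having values on the arrays against control siRNA alone. USP34 had 2 features that fell (-0.54 and -0.46) and 2 near 0 (0.03 and 0.10), and CUL3 1 at -0.62 beside -0.21 and -0.07. Features of USP7 (-0.41 to -0.28) and PSMD14 (-0.21 and -0.10) were close together.

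**Figure D5:**
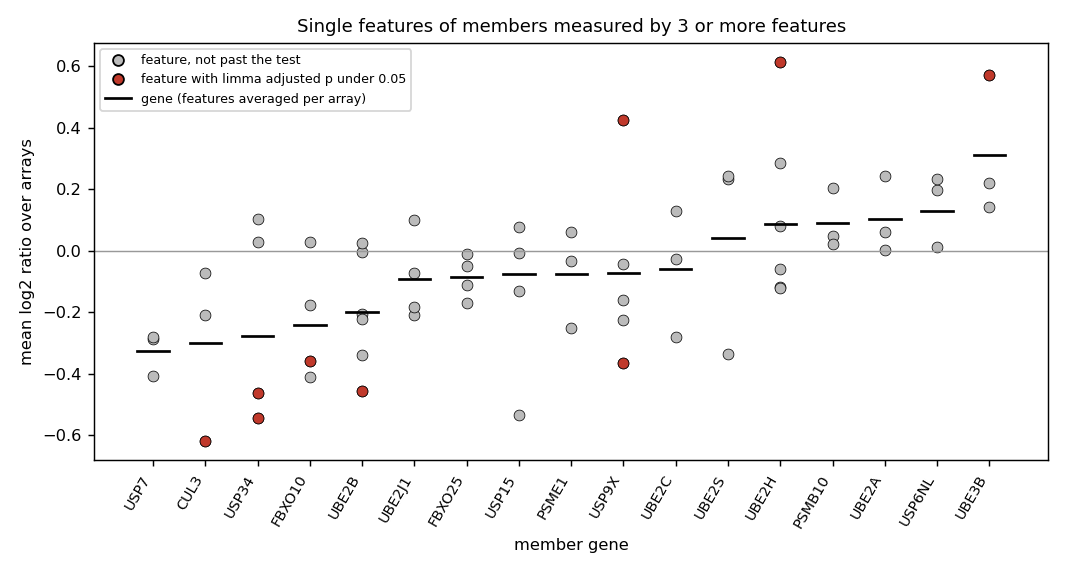
Mean log2 ratio over arrays (vertical axis) of each feature of 17 genes measured by 3 or more features, with features past limma at an adjusted p under 0.05 in red and the gene's mean as a black line. USP9X has a red feature on each side of 0.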

How the data were processed

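What was measured is the ratio of MYC siRNA over control on 4 arrays with 2 channels. The deposited table holds log2 ratios by the authors, with array medians near 0. No source used here gives the normalization, the log base or the direction: base 2 and Cy5 over Cy3 were taken from the dyes per the labels and from the values of MYC. Array intensities were not used here, so signal over background is unknown.

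Features of a symbol were averaged per array and features without a symbol kept single, and entries with values on at least 2 arrays were fitted with limma 3.58.1 in R 4.3.3 (lmFit, eBayes; Benjamini-Hochberg over all 8509 entries, threshold 0.05). Time and control kind were fitted as terms on the 6798 entries with 4 values, which leaves 1 residual degree of freedom. No other filter and no pseudocount was used. The fits were tested on simulated data with changes larger than any member's mean or difference, so that test says nothing about changes of their size. The small number of arrays limits the precision. Named were members past the threshold, all proteasome and cullin genes, the lowest and highest 3 others of each role, members nearest the threshold for time and control, members with opposed features, and up to 6 called genes of a list. Other members and uncalled list genes were named after their values were seen. The members and the gene lists were chosen with earlier results of these data known.

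Alternatives were centring, scaling to 1 SD, complete entries or features, the median of features, single features, other terms, robust moderation, other thresholds and leaving out each array.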

Additional observations from a re-analysis of the deposited data

Results flagged for a closer look

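Each of the 55 genes with 4 values was examined for an array far from the others, and 2 (3.64%) had one. USP7 lay at -0.72 on the 24 h array against no siRNA, while its other values were between -0.23 and -0.15. PSMB9 lay at 0.69 on the 8 h array against control siRNA, while its other values were between 0.05 and 0.09. Chance alone marks about 5% of groups at this level.

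USP54 differed between the kinds of control by -1.19 (no siRNA minus control siRNA), by a limma test of the difference itself. The cause was not tested.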

How the results depend on the processing

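For MYC siRNA against control, centring arrays, the median of features and robust moderation kept the counts of entries and genes within 1.5 times. Among all entries, the 255 higher became 394 with scaled arrays and 416 with complete features. With single features, 959 were lower and 560 higher, and of those of the genes described 12 and 3. With time and control as terms, 1124 entries were lower and 856 higher, and 14 and 4 of the genes. At a threshold of 0.10 there were 1028 lower and 758 higher entries and 14 and 2 genes, and at 0.01 there were 0 of each. Genes higher went from 0 to 1 with scaled arrays, complete entries or complete features (UBE3B). Leaving out 1 array gave 0 to 118 lower and 0 to 44 higher entries, and 0 to 1 lower genes. The median of the genes stayed between -0.0925 and -0.0643 in every fit that gave one.

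For 24 h against early, 6 lower and 2 higher entries became 0 and 0 without a term for control and with scaled arrays, 50 and 17 with centred arrays, 20 and 6 with complete features, and 74 and 24 with the median of features. In these last 3 settings 1 gene (USP25) was lower. Leaving out 1 array together with the term for control gave 0 to 1 lower and 0 to 2 higher entries. For the kind of control, 6 lower and 0 higher entries became 56 and 31 with centred arrays, 31 and 6 with complete features, 115 and 47 with the median of features, and 0 lower without a term for time or with scaled arrays, where 0 genes were called. Leaving out 1 array together with the term for time gave 1 to 29 lower and 0 to 2 higher entries, and 0 to 1 lower genes. The cause of these changes was not tested.

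Of 840 values of single genes under alternatives, 757 kept direction and side of the threshold, 38 lost a call, 30 gained one and 15 changed sign. Most of these genes had no call to lose. With all arrays 9 lost a call, so most losses came from leaving out 1 array. Other thresholds, robust moderation and terms leave a gene's mean as it is, so its direction could not change there. FBXO42 (-0.0319) and FBXW2 (-0.0087) changed sign with scaled arrays and UBE2S (-0.0514) with complete features. With 1 array left out, the means of FBXO31 (-0.152 to 0.0453), FBXO42 (-0.137 to 0.0927), FBXW11 (-0.065 to 0.1), FBXW2 (-0.0797 to 0.0577), PSMA3-AS1 (-0.033 to 0.183), UBE2C (-0.0987 to 0.005), UBE2S (-0.0043 to 0.092), USP24 (-0.0027 to 0.219), USP25 (-0.123 to 0.334) and USP9X (-0.125 to 0.0066) spanned 0. No paired analysis was possible because there is 1 group and its replicate numbers are only in accession order.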
